A study of Homo sapiens with 4 samples.

Results

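HCT15 is an established human colorectal adenocarcinoma cell line, and its 2 small RNA libraries, of 4 in the series, were compared here. They were taken by their titles, 1 from HCT15 parental cells and 1 from HCT15 spheres, and every miRNA name in their files was kept. The parental cells grew in RPMI with 10% FBS. The spheres grew in DMEM-F12 with N2 Plus Supplement, bFGF and EGF at 10 ng/ml each, and are called sphere-derived cancer stem cells by the submitters. Medium, serum, growth factors and growth as spheres changed together and cannot be told apart. Each culture had 1 library, and no label says that a culture was repeated, so differences below are between these libraries and carry no test. In RNA from whole cultures, fewer cells of a type and less RNA per cell cannot be told apart either.

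A microRNA (miRNA) is cut from a hairpin precursor by Drosha and Dicer, and 1 arm of the hairpin, the 5p or the 3p arm, is usually kept in an Argonaute protein while the other is degraded. The kept arm pairs with messenger RNAs mainly through its seed, bases 2 to 8, and lowers their stability and translation. In colorectal cells, miR-21, miR-31 and miR-135b are known as miRNAs of tumours, the miR-200 family as keepers of the epithelial state, and let-7 as a family of differentiated cells.

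The files listed 2041 miRNA names, of which 975 were above 0 in parental cells and 578 in spheres. The deposited values are RPKM and were rescaled to sum to 1000000 in each library (RPM below). They corresponded to about 3184750 reads in parental cells and 2317670 in spheres, so that 3 reads, the limit that a count of 0 allows, were 0.942 and 1.29 RPM. Only 4 miRNAs were at 1 read in spheres against 103 in parental cells, so a 0 listed for spheres can be a single read that was dropped. Log2 ratios of spheres over parental cells are on the log2(RPM + 1) scale after scaling by trimmed means (TMM). Intervals are 95% and cover counting error only. Among the 205 miRNAs with a mean of at least 50 RPM, TMM put the HCT15 ratios higher than scaling to the total by 0.40 to 0.41 on the log2 scale, and 60 of them were above 0 under TMM and below 0 under total scaling. "Over the scalings" below means over 5 of the 6 scalings run, without the upper quartile of each library's own values, which is taken over different numbers of names.

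The sequences below are those of the miRNAs that carry the comparison, from RefSeq (GRCh38.p14), written 5′ to 3′ with the seed in capitals; positions below are hairpins on the same build. The first set holds abundant miRNAs whose shares differed between the libraries, with miR-148b-3p beside its close relative.
miR-21-5p: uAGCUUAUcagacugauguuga
miR-10a-5p: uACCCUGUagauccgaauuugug
miR-182-5p: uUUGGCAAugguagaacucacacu
miR-148a-3p: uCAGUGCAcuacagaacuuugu
miR-148b-3p: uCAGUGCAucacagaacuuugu
miR-371a-5p: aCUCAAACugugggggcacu
miR-373-3p: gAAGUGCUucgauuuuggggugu
let-7a-5p: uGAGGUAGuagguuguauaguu
let-7f-5p: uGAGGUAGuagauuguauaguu
miR-148a-3p and miR-148b-3p share a seed and differ at C9U and U10C, and let-7a-5p and let-7f-5p differ at G12A, with positions counted from 1 at the 5′ end and the first-named miRNA's base first.

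The second set holds miRNAs that were higher in spheres, shown because several of them share a seed.
miR-146a-5p: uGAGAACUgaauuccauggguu
miR-146b-5p: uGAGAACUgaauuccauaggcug
miR-29a-3p: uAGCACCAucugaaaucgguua
miR-29b-3p: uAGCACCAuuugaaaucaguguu
miR-181a-5p: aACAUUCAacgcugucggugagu
miR-181b-5p: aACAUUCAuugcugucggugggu
miR-31-5p: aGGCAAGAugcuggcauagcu
miR-125a-5p: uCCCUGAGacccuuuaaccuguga
miR-205-5p: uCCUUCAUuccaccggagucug
miR-139-5p: uCUACAGUgcacgugucuccagu
miR-146a-5p and miR-146b-5p have the same seed and differ at G18A and U21C, so reads trimmed at the 3′ end cannot tell them apart fully, and how the authors placed shared reads is not given in the sources used here.

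The third set pairs the arms of hairpins whose arms had different ratios, with the arm that was lower in spheres second.
miR-18a-5p: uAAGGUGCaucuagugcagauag
miR-18a-3p: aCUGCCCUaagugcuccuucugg
miR-25-3p: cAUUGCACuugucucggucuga
miR-25-5p: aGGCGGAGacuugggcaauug
miR-191-5p: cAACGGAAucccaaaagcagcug
miR-191-3p: gCUGCGCUuggauuucgucccc
miR-30a-5p: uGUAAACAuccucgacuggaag
miR-30a-3p: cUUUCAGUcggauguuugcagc
miR-1307-5p: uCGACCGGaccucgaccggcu
miR-1307-3p: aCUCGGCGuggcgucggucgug
In each pair the arms have different seeds.

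The most abundant miRNAs were largely the same in both cultures, with a different balance between them. miR-21-5p, an abundant miRNA of epithelial tumours, took 9.30% of the listed value in parental cells and 12.6% in spheres. miR-10a-5p, whose hairpin lies in the HOXB cluster, took 8.68% and 11.3%. miR-10b-5p, from the HOXD cluster, took 7.78% and 9.57%. The 3 leading miRNAs were thus the same in order, and each held a larger share in spheres. miR-182-5p, of the miR-183 cluster, went from 5.92% to 8.85%. miR-148a-3p, a miRNA of differentiated epithelia and liver, went from 3.43% to 4.47%. The 10 most abundant miRNAs held 60.3% of the parental library and 63.6% of the sphere library.

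Shares were smaller in spheres for the embryonic miRNAs and for let-7. The miR-371a, miR-372 and miR-373 hairpins form a cluster on chromosome 19 best known from embryonic stem cells and germ cell tumours. The miR-371a hairpin is at chr19:53787675-53787741 on the plus strand, outside any annotated host gene on that strand. miR-371a-5p took 6.33% of parental cells and 3.70% of spheres. miR-373-3p took 3.49% and 2.36%, and miR-372 took 2.74% and 2.07%. In both libraries these miRNAs were among the abundant ones, while 11 of the 17 embryonic names listed were at 0 in both: every miR-302 and miR-367 name, and miR-371b-3p. let-7a-5p went from 4.35% to 2.82% and let-7f-5p from 2.95% to 1.92%. miR-22-3p, a widely expressed miRNA, had the second largest loss, from 4.28% to 2.32%.

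In RPM, miR-21-5p gained 33451, miR-182-5p 29266, miR-10a-5p 26102, miR-10b-5p 17848 and miR-146a-5p 16984. miR-371a-5p changed by -26277, miR-22-3p by -19643, let-7a-5p by -15329 and miR-92a-3p by -14265. All of these except miR-146a-5p were among the 10 most abundant of at least 1 library.

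**Figure D1:**
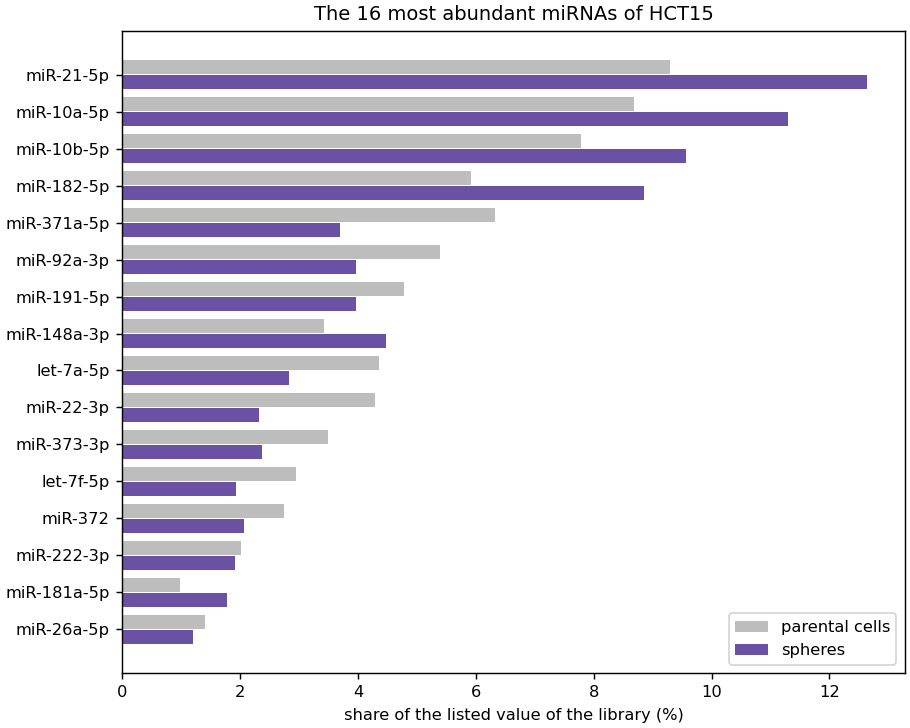
Shares of the listed value, in percent, of the most abundant miRNAs in the parental and the sphere library, 1 library each. miR-21-5p is highest in both, at 9.30% and 12.6%, and miR-371a-5p goes from 6.33% to 3.70%.

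Grouped by seed, the let-7 seed GAGGUAG (10 names, 8 of them at 50 RPM or more) held 9.68% of parental cells and 6.60% of spheres. The miR-25 and miR-92 seed AUUGCAC held 6.93% and 4.81%. The seed CAGUGCA of miR-148a-3p and miR-148b-3p held 3.60% and 4.69%, and the miR-181 seed ACAUUCA 1.17% and 2.002%. The seed GAGAACU of miR-146a-5p and miR-146b-5p held 0.370% and 2.28%, a 6.16-fold larger share in spheres. Names with no RefSeq match, among them miR-10b-5p and miR-372, are not in these sums, which cover 83.6% of the listed value in parental cells and 82.9% in spheres.

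Most miRNAs had close levels in both cultures. Of the 205 with a mean of at least 50 RPM, 145 (70.7%) were within 1.5-fold, and the median log2 ratio was 0.15, with quartiles of -0.25 and 0.47. Under total scaling that median was -0.26. At least 2-fold higher in spheres were 11 (5.37%), and 3 (1.46%) were lower by 2-fold or more. Under total scaling the split was 5 higher and 21 lower. Past 2-fold in all 5 scalings were 5 higher miRNAs (miR-146a-5p, miR-4792, miR-146b-5p, miR-210 and miR-29b-3p) and 3 lower ones (miR-18a-3p, miR-25-5p and miR-191-3p). Of these, miR-29b-3p passed only narrowly, at a log2 ratio of 1.002 under total scaling.

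**Figure D2:**
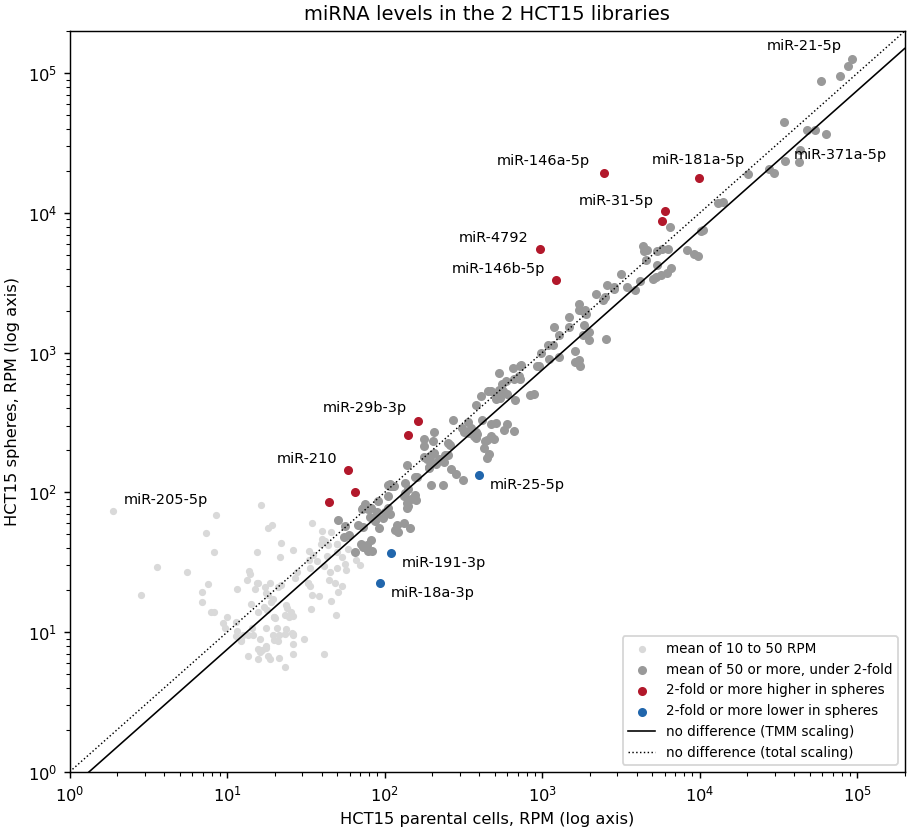
Levels in RPM in parental cells (x axis) and spheres (y axis), both on log scales, 1 point per miRNA; miRNAs at 0 in a library cannot be drawn. Most points lie along the diagonal, and miR-146a-5p stands above it at 2466 and 19450.3 RPM.

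miR-146a-5p, induced by NF-kB and a brake on signalling from Toll-like receptors, had the largest log2 ratio at this level. It stood at 2466 RPM in parental cells and 19450.3 in spheres, about 7868 and 45230 reads. The log2 ratio was 3.39 (3.36 to 3.43), and 2.98 to 3.39 over the scalings. Its hairpin lies in an exon of MIR3142HG at chr5:160485352-160485450 on the plus strand. The other arm moved alongside: miR-146a-3p stood at 8.46 and 69.2 RPM, 27 and 161 reads, with a log2 ratio of 3.28 (2.85 to 4.09).

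miR-146b-5p, from a hairpin on chromosome 10, stood at 1229.8 and 3321 RPM, with a log2 ratio of 1.84 (1.79 to 1.90). Its other arm, miR-146b-3p, was at 40.1 and 52.9 RPM, with a log2 ratio of 0.79 (0.44 to 1.18). The miR-146b arms thus had ratios further apart than the miR-146a arms. miR-155-5p, the third NF-kB-linked miRNA at this level, was at 1816 and 1334 RPM with a log2 ratio of -0.03. Of these 3 NF-kB-linked miRNAs 2 were at least 2-fold higher, against 11 (5.37%) of all 205. Their median was 1.84 against 0.15 over all 205, and with 3 members it is the value of miR-146b-5p itself. The 2 higher ones are the close relatives whose trimmed reads cannot be told apart fully.

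miR-210, the miRNA most closely tied to hypoxia, stood at 58.3 and 144 RPM, 186 and 335 reads. Its log2 ratio was 1.70 (1.46 to 1.98). miR-29b-3p, of the family that targets collagens, stood at 163 and 327 RPM. Its log2 ratio was 1.41 (1.26 to 1.59), and 1.002 to 1.41 over the scalings. The rest of its seed family had smaller ratios: miR-29a-3p was at 1819 and 1985 RPM (0.54), and miR-29c-3p at 1288 and 1339 RPM (0.47).

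Ratios above 2-fold under TMM, but not under total scaling, were found for 6 miRNAs. miR-181a-5p stood at 9842 and 17737 RPM, with a log2 ratio of 1.26 (1.24 to 1.28), and 0.85 under total scaling. Its relatives were lower: miR-181b-5p was at 1474 and 1793 RPM (0.69) and miR-181c-5p at 411 and 493 (0.67). miR-31-5p, raised in many colorectal tumours, stood at 6012 and 10373 RPM. Its log2 ratio was 1.20 (1.17 to 1.23), and 0.79 under total scaling, and its hairpin lies in an intron of MIR31HG at chr9:21512115-21512185 on the minus strand. miR-125a-5p stood at 5735 and 8724 RPM, with 1.02 (0.99 to 1.05) and 0.61. miR-516a-5p, of the placental C19MC cluster on chromosome 19, was at 64.8 and 100.2 RPM, with 1.03 (0.76 to 1.32) and 0.62. miR-6087 had a log2 ratio of 1.31 and miR-4286 of 1.27.

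miR-4792 stood at 964 and 5522 RPM, with a log2 ratio of 2.93 (2.88 to 2.99). It belongs with miR-6087 and miR-4286 to a list of 31 entries that overlap or resemble other RNAs, such as ribosomal RNA. Of the 9 entries of that list at this level, 3 were at least 2-fold higher, against 11 (5.37%) of all 205 miRNAs. Under total scaling 1 of the 9 was higher, miR-4792, and 1 lower, miR-1304-3p. The list summed to 3414 RPM in parental cells and 7641 in spheres. Fragments of other RNAs and mature miRNAs cannot be told apart in these files.

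**Figure D3:**
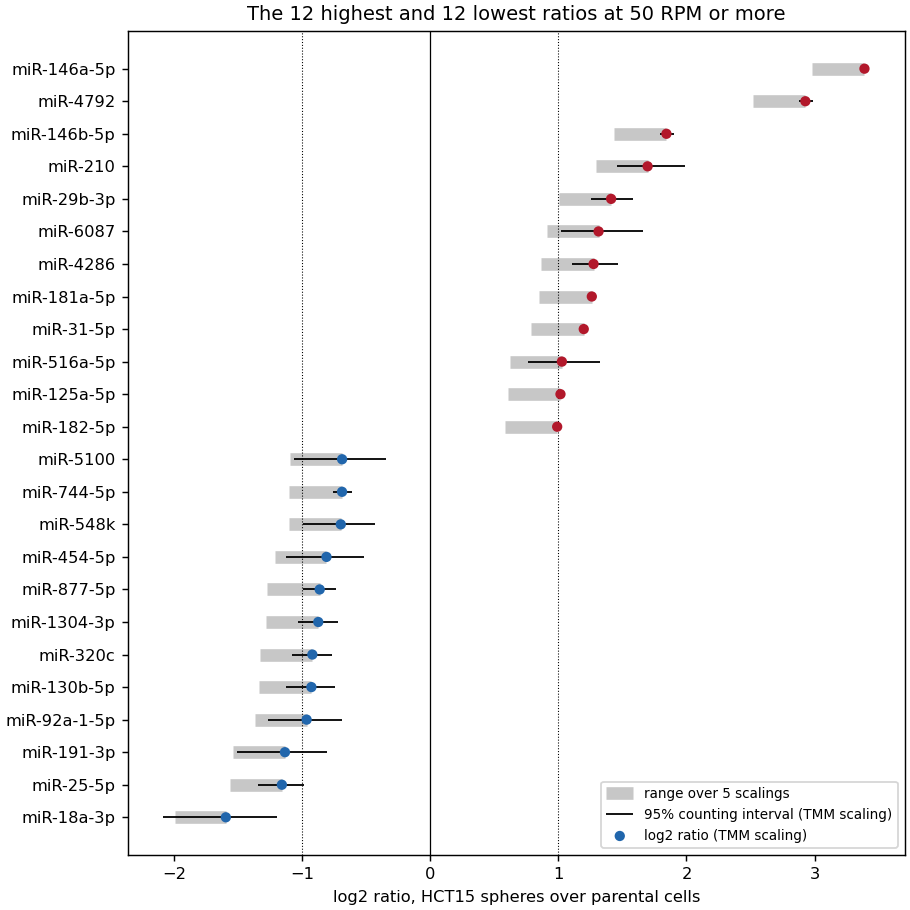
Log2 ratios of spheres over parental cells for the highest and lowest miRNAs at 50 RPM or more, with 95% counting intervals. miR-146a-5p is highest at 3.39 and miR-18a-3p lowest at -1.597.

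Of the 3 miRNAs at least 2-fold lower in spheres, miR-25-5p and miR-191-3p are the less abundant arms of their hairpins, while miR-18a-3p exceeded miR-18a-5p in parental cells. miR-18a-3p, from the miR-17-92 cluster in MIR17HG, stood at 93.2 and 22.6 RPM, 294 and 52 reads, with a log2 ratio of -1.597 (-2.08 to -1.20). Its hairpin is at chr13:91350751-91350821 on the plus strand. miR-25-5p, from an intron of MCM7 at chr7:100093560-100093643 on the minus strand, stood at 398 and 134 RPM, with -1.16 (-1.34 to -0.98). miR-191-3p, from an intron of DALRD3 at chr3:49020618-49020709 on the minus strand, stood at 109 and 37.0 RPM, with -1.14 (-1.51 to -0.81). The major arms had ratios nearer 0: miR-25-3p had a log2 ratio of -0.24 (-0.65 under total scaling) and miR-191-5p of 0.14 (-0.27 under total scaling). Among the next lowest were miR-92a-1-5p (145 and 55.3 RPM, -0.97), miR-130b-5p (314 and 123, -0.93) and miR-744-5p (1732 and 807, -0.69).

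Differences between arms of 1 hairpin do not depend on scaling between libraries. Arms were paired by name, and some mature miRNAs, such as let-7a-5p and miR-181a-5p, come from more than 1 hairpin. There were 77 such pairs, called hairpins below, with the minor arm at 10 RPM or more. The median of the minor arm's log2 ratio less the major arm's was -0.23. The minor arm was relatively lower in spheres in 49 hairpins and relatively higher in 28. Its median share of the hairpin was 10.8% in parental cells and 8.50% in spheres. The median was -0.12 where the minor arm is 5p (36 hairpins) and -0.39 where it is 3p (41 hairpins).

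miR-1307-3p stood at 569 and 282 RPM while miR-1307-5p stood at 1192 and 1539, so that the 3p arm went from 32.3% of the hairpin to 15.5%. miR-30a-3p was at 427 and 206 RPM against 6448 and 7893 for miR-30a-5p, a share of 6.20% and 2.55%. miR-30e-3p went from 13.0% to 6.52% of its hairpin. Both miR-30 hairpins thus shifted towards the 5p arm, which holds the miR-30 seed. In miR-18a the balance also moved towards the 5p arm, which is the usual guide. There the 5p arm was the minor one by its mean. It was at 43.7 and 42.0 RPM and went from 31.9% to 65.0%. In let-7a the minor 3p arm was at 207 and 269 RPM, and the difference between arms was 1.00. Since let-7a-5p comes from several hairpins, this is not a difference within 1 hairpin. Another 3p entry, let-7a-2-3p, was at 4.32 and 0.99 RPM (-1.15). Its sphere value was below 1.29 RPM, the level of 3 reads, so its direction cannot be read.

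**Figure D4:**
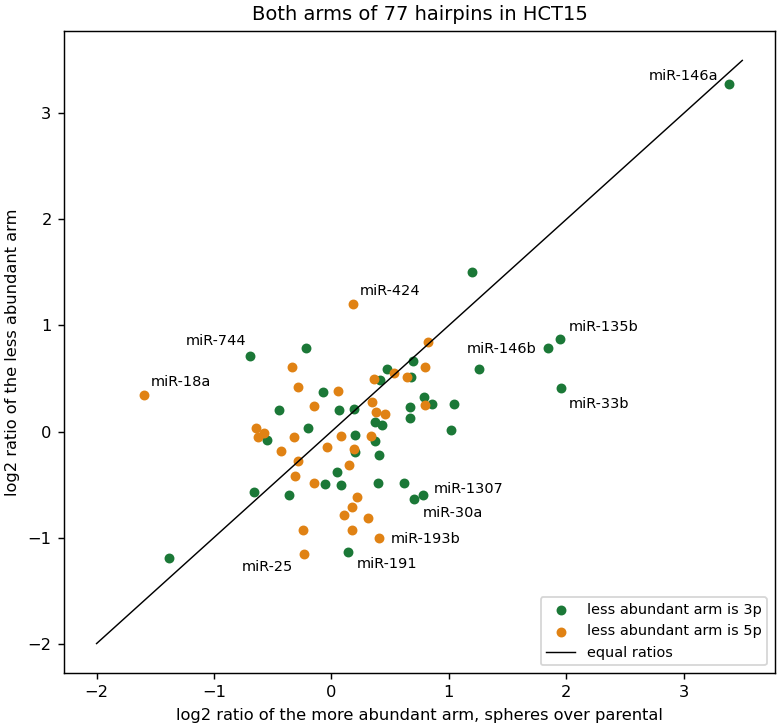
Log2 ratio of the major arm (x axis) against that of the minor arm (y axis), 1 point per hairpin name, for 77 names. The minor arm is relatively lower in 49, among them miR-1307 and miR-30a, and relatively higher in 28, among them miR-18a.

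At 50 RPM or more, no name in the miR-200 and intestinal lists of epithelial miRNAs was past 2-fold. Below that level, miR-205-5p, which is in the miR-200 list, was higher in spheres (1.88 and 73.1 RPM, 5.02). At still lower levels, miR-200c-5p stood at 9.72 and 2.92 RPM (-1.11). miR-194-3p, at 1.25 RPM or about 4 reads in parental cells, was listed at 0 in spheres. Its interval reached up to 1.47, so no direction can be read. All 7 miR-200 family members at 50 RPM or more had ratios above 0 under TMM, as did 123 of all 205 miRNAs. The median of the 7, 0.38, turns to -0.03 under total scaling. miR-200b-3p stood at 4625 and 5423 RPM and miR-141-3p at 2857 and 2950. miR-192-5p, an intestinal miRNA, was at 2582 and 3029 RPM, and miR-375 was at 10451 and 7538. Summed over all its names, miR-205 included, the miR-200 list held 1.29% and 1.36%.

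Of the 16 let-7 names at this level none was past 2-fold, with a median of 0.15, the same as over all 205, and -0.26 under total scaling. Of the 8 members of the miR-17-92 cluster, a cluster of proliferating cells, 1 was lower (miR-18a-3p), and its median was 0.25 (-0.16 under total scaling, where miR-92a-1-5p was also past 2-fold). The 4 embryonic names had a median of -0.26 and none was past 2-fold. Under total scaling their median was -0.67, and 1 of them, miR-371a-3p, was at least 2-fold lower, at 2547 RPM in parental cells and 1263 in spheres.

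All 8 colorectal tumour miRNAs at this level had ratios above 0 under TMM, as did 123 of all 205 miRNAs. The lowest of the 8, miR-21-3p at 0.26, is -0.15 under total scaling. The median of the 8 was 0.61 (0.20 under total scaling), with 1 past 2-fold (miR-31-5p). Summed over all its names, the list held 17.7% of parental cells and 24.3% of spheres. The 5 members of the miR-148 and miR-152 family had a median of 0.61 and none was past 2-fold. For 7 names of the miR-181 family the median was 0.67, with 1 past 2-fold. Among 9 names of the miR-30 family none was past 2-fold, with a median of 0.32. Under total scaling that median was -0.09 and 2 of them, miR-30a-3p and miR-30c-1-3p, were at least 2-fold lower.

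The miR-183 cluster, of sensory and epithelial tumour cells, held 6.48% of parental cells and 9.41% of spheres, nearly all of it miR-182-5p at 59235 and 88501 RPM (log2 ratio 0.99, 0.58 under total scaling). Its partners differed less: miR-183-5p stood at 5368 and 5378 RPM (0.41) and miR-96-5p at 138 and 157 RPM (0.59). The hairpin of miR-182 lies at chr7:129770383-129770492 on the minus strand. HOX loci, which hold the miR-10 and miR-196 hairpins, had 5 names at this level, none past 2-fold, and summed to 16.5% and 20.9%. Their 2 leading members had ratios of 0.79 (miR-10a-5p) and 0.71 (miR-10b-5p), while miR-196b-5p was at 133 and 94.3 RPM (-0.09). The shares of HOX-derived miRNAs were thus mainly those of miR-10a-5p and miR-10b-5p.

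Further families had at most 1 member past 2-fold under TMM at 50 RPM or more. The miR-221 and miR-222 list had 0 of 4 names past 2-fold and a median of 0.58, with miR-221-3p at 4346 and 5791 RPM and miR-222-3p at 20182 and 19148 RPM. None of the 8 names of the miR-23, miR-27 and miR-24 clusters was past 2-fold (median 0.34). Under total scaling the median was -0.07 and 1 of them, miR-27b-5p, was at least 2-fold lower. The list of miR-15, miR-16, which restrain the cell cycle, and their relatives had 5 names at this level, miR-424-3p among them. None of the 5 was past 2-fold, with a median of -0.01 (-0.42 under total scaling). Just under this level, miR-424-5p of the same list stood at 34.5 and 60.6 RPM (1.20, and 0.80 at its lowest over the scalings). For the 6 names of the miR-130, miR-301 and miR-454 family the median was -0.24 and none was past 2-fold. Under total scaling the median was -0.65 and 2 of them, miR-130b-5p and miR-454-5p, were at least 2-fold lower. Of the 9 names of miR-99, miR-100 and miR-125, 1 was past 2-fold (miR-125a-5p), with a median of 0.11. miR-99b-5p, from the same transcript region as miR-125a, stood at 8356 and 5467 RPM (-0.20), so these neighbours on chromosome 19 had ratios of opposite sign under TMM and of opposite sign under total scaling too (-0.61 and 0.61).

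**Figure D5:**
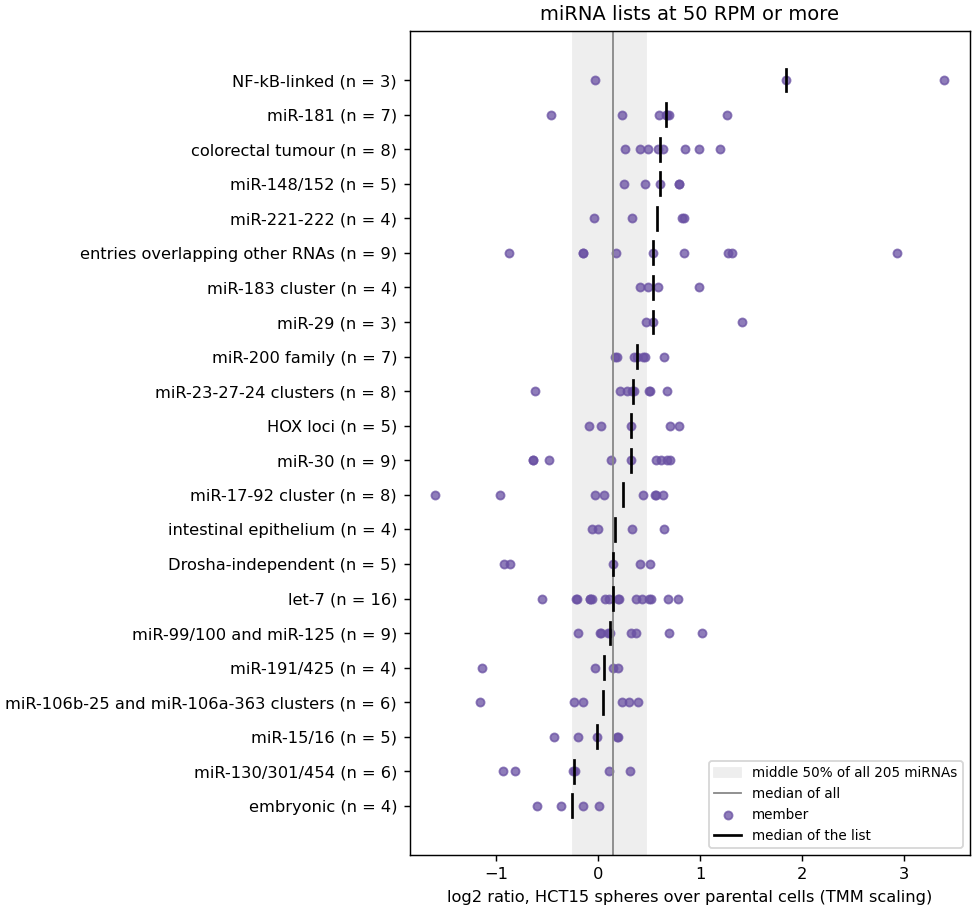
Log2 ratios (x axis, TMM scaling) of the members at 50 RPM or more of each list with at least 3 such members, 1 point per miRNA, with the list's median as a black bar and the median and middle 50% of all 205 miRNAs in grey. Among the lists drawn, the NF-kB-linked list has the highest median, 1.84, and the embryonic list the lowest, -0.26. The NF-kB-linked list has 3 members drawn, and its median is the value of miR-146b-5p.

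The C19MC cluster, active in placenta, had 47 of its 58 names above 0 in parental cells and 31 in spheres. Its summed level was only 174 RPM in parental cells and 259 in spheres. Some names stood below 1 read, such as miR-520b at 0.062 RPM in parental cells, where 1 read was about 0.31 RPM. Others, such as miR-518e-5p and miR-519c-5p, had the same value (0.768). The counts of names are thus not counts of miRNAs detected, and the sphere library had fewer reads and few names at 1 read. Only 2 names of the cluster reached 50 RPM, with a median of 0.87, and 0.47 under total scaling. Imprinted DLK1-DIO3 miRNAs, by comparison, were at 0 in both libraries for 57 of 62 names.

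Markers of other cell types were found at unequal levels. Neural miRNAs had the largest sum, 742 RPM in parental cells and 408 in spheres, most of it miR-128 at 601 and 307 RPM. In the same list miR-9-5p was at 8.25 and 13.9 RPM (1.07) and miR-219-1-3p at 14.4 and 3.44 (-1.44). miR-124-3p, which defines neurons, was listed at 0 in both. Endothelial miR-126 summed to 127 and 121 RPM over its arms. Stromal miRNAs (miR-143, miR-145 and others) summed to 36.0 and 35.9 RPM with 5 of 10 names at 0 in both libraries. Muscle miRNAs summed to 0.618 and 0.848 with 7 of 8 at 0, and blood cell miRNAs to 61.4 and 62.9. Most of the blood cell sum was miR-486-5p, at 42.9 and 34.8 RPM (0.11), and miR-142-5p, at 13.9 and 25.9 RPM (1.24). miR-223-3p, which defines myeloid cells, and miR-451a, which defines red cells, were listed at 0 in both.

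Base composition moved with the ratios. Over the 170 miRNAs at 50 RPM or more with a RefSeq sequence, the log2 ratio and GC content had a Spearman correlation of -0.32 and a Pearson correlation of -0.28. The points share both libraries. The median was 0.38 for the 57 miRNAs with 40 to 50% GC and -0.30 for the 26 with 60% or more. At 10 to 50 RPM the Spearman correlation was 0.01 over 103 miRNAs. Its part in the ratios above was not tested.

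At 10 to 50 RPM, 23 of 127 miRNAs (18.1%) were higher in spheres by 2-fold or more, and 11 (8.66%) were lower by as much. Among the 23 were miR-4508 (3.07), miR-663a (2.70), miR-4449 (2.65) and miR-3648 (2.45). These belong to the list of entries that overlap or resemble other RNAs. The miRNAs named in this paragraph were chosen after their values were seen. miR-205-5p, a miRNA of squamous and basal epithelia that shares targets with the miR-200 family, stood at 1.88 and 73.1 RPM, about 6 and 170 reads, with a log2 ratio of 5.02 (4.54 to 7.16). Its hairpin lies in an exon of MIR205HG at chr1:209432133-209432242 on the plus strand. miR-139-5p, from an intron of PDE2A, stood at 7.30 and 50.96 RPM, 23 and 117 reads, with a log2 ratio of 3.03 (2.56 to 3.93). miR-135b-5p stood at 18.3 and 55.5 RPM (1.95) and miR-135a-5p, with the same seed, at 15.4 and 37.3 (1.62). miR-31-3p, the other arm of miR-31, stood at 6.90 and 16.3 RPM (1.51), so that both arms were higher in spheres. miR-573 stood at 25.4 RPM in parental cells, about 79 reads, and was listed at 0 in spheres. With 3 reads as the floor in spheres, it was at least 14.7-fold lower after TMM scaling, a bound and not a measured ratio. That figure takes the parental level as exact, while the counting interval of its log2 ratio reached up to -3.52. Neither value allows for a read that was dropped from the sphere listing.

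HT29, the other line of the series, also had 1 library of parental cells and 1 of spheres, scaled within that line. miR-146a-5p had a log2 ratio of 3.39 in HCT15 and 2.89 in HT29, miR-146b-5p of 1.84 and 1.60, miR-4792 of 2.93 and 2.49, and miR-210 of 1.70 and 2.71. Of 148 miRNAs at 50 RPM or more in both lines, 8 were at least 2-fold higher in HCT15 spheres and 24 (16.2%) in HT29 spheres, and these 4 were in both. TMM moved HT29 ratios by 0.70 against total scaling. With total scaling in HT29, miR-146b-5p was at 0.89, and 9 of the 148 miRNAs (6.08%) were at least 2-fold higher there, 3 of them among the 8. miR-29b-3p had 1.41 in HCT15 and -0.92 in HT29, and miR-205-5p had 5.02 and -1.54. Signs were also opposite for miR-135b-5p (1.95 in HCT15 and -1.75 in HT29), miR-135a-5p (1.62 and -1.74) and miR-31-3p (1.51 and -2.82). miR-139-5p was above 0 in both lines (3.03 and 1.51). These differences between lines were not tested.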

How the data were processed

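Per the labels' protocols, the TruSeq Small RNA kit turned total RNA into sequencing libraries. The deposited HCT15 values are RPKM and the deposited HT29 values are read counts for each mature miRNA of miRBase R19, per the file headers. The submitters' processing notes name hg19 as the build. Which aligner and trimming were used, and where shared reads went, is not given in the sources used here.

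HCT15 values were divided by their sums, 516401 and 612602 RPKM, and rescaled to sum to 1000000 (RPM). Low values rise in steps that vary with mature length. For 22 bases 1 read was worth 0.162 in parental cells and 0.263 in spheres, which gave reads that were whole, within 0.02 reads, for 65.6% of 323 and 68.0% of 150 low values. The commonest sphere value was taken as 2 reads. Read numbers, exact conditional binomial intervals and floors are therefore approximate, and names with no RefSeq match were taken as 22 bases long. Reads carry no molecular identifiers.

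Scaling used unweighted trimmed means over the 2 HCT15 libraries (30% of ratios and 5% of levels trimmed) and a pseudocount of 1 RPM. A change was called at 2-fold with a mean of at least 50 RPM. With 1 library per culture no test was made, and no p-value is given. Alternatives were 5 other scalings, 2 other pseudocounts, other minimums and names listed in all 4 files. The scripts were tested on simulated data.

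The text names the 12 highest and 12 lowest ratios, the 10 most abundant miRNAs per library, the 8 largest gains and losses, up to 6 members of each of 34 lists, the 8 hairpins with the largest differences between arms in each direction, the 8 largest seed families, and miRNAs at 0 in 1 library and at 10 RPM or more in the other, of which it gives a selection. The comparison and the lists were chosen with earlier results of these data known. RefSeq sequences were matched by name for 1715 of 2041 names, 170 of the 205 at the minimum. Hairpin positions are on GRCh38, with host genes from GENCODE 29, and none was taken from hg19. Python 3.11.15, numpy 2.4.6, pandas 2.3.3, scipy 1.17.1 and matplotlib 3.10.9 were used.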

Additional observations from a re-analysis of the deposited data

Results flagged for a closer look

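miR-31-5p had opposite directions in the 2 lines. In HCT15 it stood at 6012 RPM in parental cells and 10373 in spheres, a log2 ratio of 1.20. In HT29 it stood at 13634 and 3241 RPM, a log2 ratio of -1.37. The difference between the lines was not tested, since each has 1 library per culture.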

How the results depend on the processing

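With 1 library per culture, none could be left out. No paired analysis was possible because each culture had 1 library and the labels carry no replicate numbers. The count of miRNAs at least 2-fold higher, 11, was 5 with total scaling, 6 scaled without the 10 most abundant, 0 scaled by the upper quartile of each library's values, 34 with a minimum of 10 RPM and 53 with no filter. The count lower, 3, was 21, 9, 201, 14 and 163 under the same settings, 1 with a minimum of 100 RPM, and 6 with an upper quartile over miRNAs above 0 in both libraries, which was chosen after seeing the data. The upper quartile of each library's values is taken over 975 and 578 names and moved ratios by 2.28 on the log2 scale against the total. Under it 114 of 195 named miRNAs had the other sign. Of the named miRNAs at least 2-fold higher under TMM, at any level, those with the other sign were miR-125a-5p (-1.67), miR-142-5p (-1.31), miR-146b-5p (-0.84), miR-181a-5p (-1.43), miR-199b-5p (-1.33), miR-210 (-0.96), miR-29b-3p (-1.26), miR-31-5p (-1.49), miR-33b-5p (-0.65), miR-424-5p (-1.43), miR-4286 (-1.40), miR-512-3p (-0.73), miR-516a-5p (-1.63), miR-516b-5p (-0.24), miR-6087 (-1.33) and miR-9-5p (-1.39). With total scaling 48 of the 195 had the other sign, without the 10 most abundant 32, and 0 with a pseudocount of 0.5 or 5 RPM. The median difference between arms, -0.23, was -0.26 with the minor arm at 50 RPM or more and -0.31 with the minor arm set by HT29. Sphere levels below 1.29 RPM could not be read at this depth.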

Other observations

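Values of miR-33a-5p and miR-33b-5p, chosen after they were seen, were both higher in spheres. These miRNAs share a seed and lie in introns of SREBF2 and SREBF1, which encode regulators of sterol and fatty acid synthesis. miR-33a-5p stood at 21.95 RPM in parental cells and 43.7 in spheres, 71 and 103 reads, with a log2 ratio of 1.36 (0.96 to 1.86). miR-33b-5p stood at 19.2 and 58.5 RPM, 63 and 140 reads, with a log2 ratio of 1.96 (1.58 to 2.47). The other arm, miR-33b-3p, was at 18.2 and 18.5 RPM. In HT29 the log2 ratios of miR-33a-5p and miR-33b-5p were 0.22 and 0.81. Both arms of miR-3065 were lower in HCT15 spheres: miR-3065-5p stood at 26.0 and 6.97 RPM (-1.38) and miR-3065-3p at 21.3 and 6.53 (-1.19).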
